A study of Mus musculus with 22 samples.

Results

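The renal capsule is a sheet of connective tissue that wraps the kidney, and 10 genes of its fibroblasts and their matrix are described here across bulk RNA sequencing libraries of mouse capsule and kidney. They are Pdgfra, Scara5 and Pi16, which mark fibroblasts, the small leucine-rich proteoglycans Dcn, Bgn and Lum, and the secreted proteins Dpt, Fbln2, Aebp1 and Igfbp6. The genes were given by name, with no cutoff on a measured value, their symbols were matched to gene identifiers, and all 10 of the 52636 genes in the files were found and passed every filter on low counts. The study sequenced 22 libraries in 6 groups to follow the capsule in homeostasis and aging. There were 3 libraries of whole capsule tissue from young mice and 3 from aged mice, and 4 libraries in each of the other groups, which were young RCAM, aged RCAM, capsule macrophages and kidney macrophages. All 22 libraries were labelled as untreated. The labels give no strain, genotype, sex or age in numbers, and no age class for the capsule and kidney macrophages. They do not spell out RCAM and list these libraries as whole tissue, whereas the design text speaks of capsules sorted for macrophages. No source says whether libraries of 1 group come from different animals, and p-values therefore reflect the library-to-library spread alone, part of which may be technical.

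Fibroblasts build and maintain the collagen-rich matrix of an organ sheath. Platelet-derived growth factors act on them through receptors such as PDGFRα, a widely used surface marker of this cell type, and fibroblasts that carry Pi16 are known from the adventitia and from the outer layers of many organs. Small leucine-rich proteoglycans are secreted core proteins with sulfated sugar chains that sit on collagen fibrils, set their thickness and bind growth factors such as TGF-β. In connective tissue the proteins encoded by these 10 genes are made mainly by fibroblasts.

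Each library held between 20.6 and 54.4 M (1e6) counts, with the lowest totals in young capsule tissue (20.6 to 22.2 M) and the highest in young RCAM (49.8 to 54.4 M). Levels below are counts per 1e6 (CPM) of the library total, and n is 3 for the tissue groups and 4 for all others. The tissue libraries carried the genes of fibroblasts, since 8 general fibroblast markers other than the 10 genes summed to 3659 to 7148 CPM there. Macrophage markers summed to 27224 to 30839 CPM in young RCAM and 26429 to 31763 CPM in aged RCAM, against 1359 to 5773 CPM in tissue, so the RCAM libraries carried the macrophage profile and went against their label of whole tissue. Replicate 2 of aged tissue also carried adrenal cortex transcripts, with 8 markers at 6515 CPM in sum against 197 CPM in young replicate 2 and at most 24.2 CPM in the other tissue libraries. The smallest mean chi-square per gene between libraries of a group was 9.49, so no library was counted as a duplicate.

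All 10 genes were highest in capsule tissue. Their levels summed to 9015 ± 2581 CPM (SD, n = 3) in young and 10815 ± 2281 CPM (n = 3) in aged tissue, against 332 ± 44.0 CPM (n = 4) in young RCAM, 1281 ± 476 CPM (n = 4) in aged RCAM, 484 ± 78.4 CPM (n = 4) in capsule macrophages and 16.5 ± 1.95 CPM (n = 4) in kidney macrophages. For 9 of the 10 genes, every tissue library lay above every other library. The exception was Fbln2, whose aged RCAM libraries overlapped both young and aged tissue. The share of all genes with every tissue library above every other library was not counted. Against RCAM of the same age alone, tissue was higher without overlap for 45.7% of all genes in young and 46.1% in aged mice. Dpt is among the 9, although its levels are not comparable between tissue and the other libraries, as described further on. In bulk libraries, fewer cells of a type and less RNA per cell cannot be told apart.

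**Figure D1:**
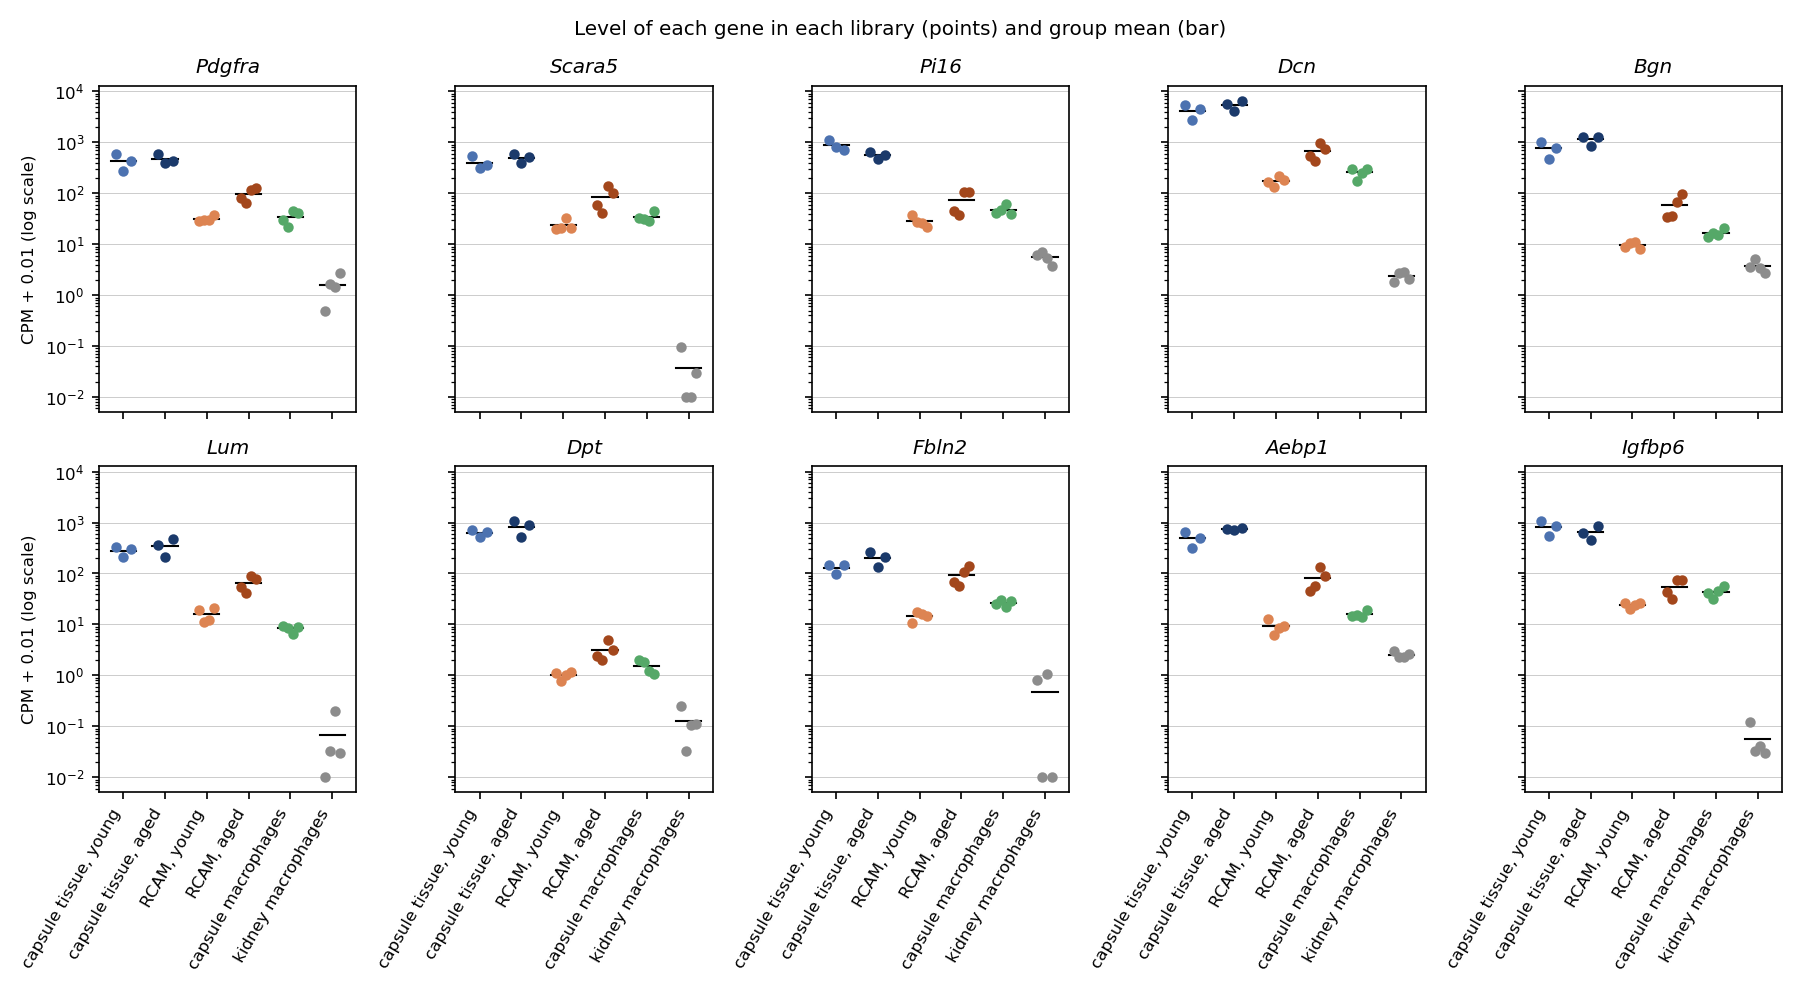
Level of each of the 10 genes in each of the 22 libraries, as CPM plus 0.01 on a log axis, with points for libraries and a bar for the group mean. Tissue libraries are at the top of each panel, RCAM and capsule macrophages lie between, and kidney macrophages are at the bottom, with Fbln2 the gene whose aged RCAM libraries reach the level of tissue.

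Among the fibroblast markers, Pdgfra, the receptor for platelet-derived growth factors, stood at 591, 277 and 425 CPM in young tissue replicates 1 to 3 and at 595, 391 and 435 CPM in aged tissue. Scara5, a scavenger receptor that takes up ferritin, stood at 531, 316 and 352 CPM in young and 583, 394 and 512 CPM in aged tissue. In both genes replicate 2 was the lowest library of each age, and the ages overlapped. Pi16, a secreted peptidase inhibitor and marker of adventitial fibroblasts, stood at 1091, 820.5 and 702 CPM in young and 651, 471 and 572 CPM in aged tissue. Here every young library lay above every aged one.

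The proteoglycans held the most reads. Dcn, which encodes decorin, a collagen-binding proteoglycan that also holds TGF-β, stood at 5360.0, 2752 and 4491 CPM in young and 5533, 4083 and 6529.6 CPM in aged tissue, and thus took 46.3% ± 2.58 and 49.7% ± 2.51 (SD, n = 3 each) of the counts of the 10 genes. Bgn, which encodes biglycan, a close relative of decorin, stood at 1001, 480.1 and 791 CPM in young and 1286, 846 and 1288 CPM in aged tissue. Lum, which encodes lumican, a keratan sulfate proteoglycan known from the cornea, stood at 324, 215 and 300.3 CPM in young and 357, 207 and 468 CPM in aged tissue. The young and aged libraries overlapped for each of the 3 proteoglycans, and replicate 2 was again the lowest of each age. Dcn and Lum are neighbours on chromosome 10 of GRCm38 (97479609 to 97518143 and 97565128 to 97572703, + strand), in a cluster that also holds Kera and Epyc. Epyc reached only 14.8 ± 7.17 CPM (SD, n = 3) in young tissue, and Kera was at 0 in every aged tissue library, so the cluster was not high as a whole.

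Of the secreted proteins, Dpt encodes dermatopontin, which binds decorin and collagen, and stood at 700.4, 517 and 658 CPM in young and 1070.3, 510.2 and 875 CPM in aged tissue. Igfbp6, a carrier that prefers insulin-like growth factor II, stood at 1081, 539.9 and 872 CPM in young and 621, 456 and 853 CPM in aged tissue. Fbln2, which encodes fibulin-2, a link between elastic fibres and basement membranes, stood at 150.0, 97.4 and 145 CPM in young and 268, 136 and 207 CPM in aged tissue. For these 3 genes the ages overlapped. Aebp1 encodes a secreted collagen-binding protein, also called ACLP, and stood at 646, 313 and 507 CPM in young and 758, 726 and 764 CPM in aged tissue. Every aged library of Aebp1 lay above every young one, and its aged libraries were the closest together of any of the 10 genes.

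Levels of different genes can be compared only per length. Per kb of exon, the young tissue means were 747 CPM for Igfbp6 and 719.6 CPM for Dcn, then 363 CPM for Dpt, 137 CPM for Pi16, 124 CPM for Bgn, 120.4 CPM for Aebp1, 114 CPM for Lum, 65.6 CPM for Scara5, 43.0 CPM for Pdgfra and 20.5 CPM for Fbln2. On this scale Igfbp6, a short transcript, stood beside Dcn, while Fbln2 and Pdgfra were the lowest.

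The 250 bases before the RefSeq start of each gene (GRCm38.p6) were searched for short motifs on both strands. Whether a motif bears on the level of a gene was not tested. The table held 7 of the 10 genes, namely Pdgfra, Pi16, Bgn, Dpt, Fbln2, Aebp1 and Igfbp6. Dcn, Lum and Scara5 were not matched. The motifs were AP-1 (TGANTCA), TEAD (GGAATG), SP1 (GGGCGG), the E-box bound by TCF21 (CAGCTG) and the TATA box (TATAAA). AP-1 and TEAD letters were in none of the 7 windows, against 6.75% and 12.6% of the 32851 promoters in the table. SP1 letters were in the windows of Bgn and Fbln2 (32.7% of all promoters), the E-box in those of Bgn and Dpt (13.001%), and the TATA box in that of Igfbp6 (12.4%). Aebp1 and Bgn are shown because they were among the genes with the largest difference between aged and young RCAM, described further on, and because the window ends before the GENCODE gene. Capitals mark matches to these motifs, of which the last SP1 pair in Bgn overlaps and Aebp1 has none. The windows are chr11:5861616-5861865 for Aebp1 and chrX:73483351-73483600 for Bgn, both on the + strand.
Aebp1: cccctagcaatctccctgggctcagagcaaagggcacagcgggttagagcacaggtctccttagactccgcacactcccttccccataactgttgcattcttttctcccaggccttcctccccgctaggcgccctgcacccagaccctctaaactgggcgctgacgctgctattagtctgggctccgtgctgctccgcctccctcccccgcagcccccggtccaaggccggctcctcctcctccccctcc
Bgn: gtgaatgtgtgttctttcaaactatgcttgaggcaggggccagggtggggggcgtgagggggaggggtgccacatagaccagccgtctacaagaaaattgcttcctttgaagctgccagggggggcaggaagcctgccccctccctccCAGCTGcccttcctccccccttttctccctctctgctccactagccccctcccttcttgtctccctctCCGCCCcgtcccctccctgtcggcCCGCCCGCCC

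In whole capsule tissue, none of the 10 genes passed the test for a difference between aged and young mice. Log2 fold changes (aged against young) were positive for 8 genes and negative for Pi16 and Igfbp6, with a median of 0.23 against 0.03 over all 16350 genes tested. edgeR's quasi-likelihood test with Benjamini-Hochberg adjustment called 0.239% of all genes in this comparison, and the smallest adjusted p of the 10 genes was 0.139. At an unadjusted p under 0.05, 1 of the 10 genes passed, Pi16, beside 22.5% of all genes.

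Pi16 differed by -0.74 ± 0.25 on the log2 scale (SE, unadjusted p = 0.0169, adjusted p = 0.139 with edgeR), and DESeq2, which called 9.93% of all genes here, called it with an adjusted p of 0.0229. Igfbp6 differed by -0.47 ± 0.34. The largest positive differences were those of Fbln2 (0.52 ± 0.27), Aebp1 (0.51 ± 0.28) and Bgn (0.48 ± 0.32), while Pdgfra was at 0.02 ± 0.29 and Dcn at 0.25 ± 0.35. Only Aebp1 (aged higher) and Pi16 (aged lower) had groups that did not overlap, beside 19.1% of all genes that did so upward and 9.52% downward. With 3 libraries per age, the intervals around these values are wide, and a missed threshold does not show that the ages are alike. With replicate numbers as a block, 13.4% of all genes were called and still 0 of the 10. With the block the adjusted p was lowest for Pi16 (0.0547) and Fbln2 (0.078). Read by same-numbered pairs, whose matching comes from the data and not from the labels, the aged library was the higher in 3 of 3 pairs for Pdgfra, Scara5, Dcn, Bgn, Fbln2 and Aebp1 and the lower in 3 of 3 pairs for Pi16 and Igfbp6. Of all genes, 35.6% were higher and 19.3% lower in every pair. Lum and Dpt were higher in 2 of 3 pairs, and Dpt in 3 of 3 after TMM scaling over all libraries.

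Marker lists of other cell types differed between the ages in these tissue libraries to unequal degrees. B and plasma cell markers summed to 16.03 to 31.1 CPM in young and 345 to 788 CPM in aged tissue, and edgeR called 3 of 6 higher. For all other lists edgeR called 0 markers, and counts at an unadjusted p under 0.05 and by DESeq2 follow. Proximal tubule markers summed to 6349.9 to 24879 CPM in young and 1241 to 6113 CPM in aged tissue (8 of 8 at an unadjusted p under 0.05, 6 lower by DESeq2), and those of the loop and distal nephron had 5 of 7 and 5 lower. Erythroid markers summed to 7060.5 to 26410.2 CPM and 3071 to 9149 CPM, which overlap (5 of 5, 5 lower by DESeq2). Macrophage markers summed to 1359 to 2785 CPM in young and 2883 to 5773 CPM in aged tissue (5 of 8, 3 higher by DESeq2), and T cell markers to 14.7 to 22.9 CPM and 45.8 to 54.01 CPM (6 of 6, 4 higher by DESeq2). The 8 general fibroblast markers summed to 4803 to 7148 CPM in young and 3659 to 5655 CPM in aged tissue, with a median log2 fold change of -0.34 where that of the 10 genes was 0.23 (2 of 8 at an unadjusted p under 0.05, Col3a1 lower by DESeq2). Their part in the values of the 10 genes was not tested.

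In sorted macrophages, all 10 genes were higher in the capsule than in the kidney, beside 27.3% of the 15701 genes tested that were called higher by edgeR. The groups did not overlap for any of the 10 genes (18.9% of all genes upward), and the median log2 fold change was 5.41 against -0.03 over all genes. The largest well-counted difference was that of Dcn, at 294, 172, 254 and 305 CPM in capsule macrophages and 1.84, 2.76, 2.83 and 2.05 CPM in kidney macrophages. Every capsule library was far above every kidney library, by 6.98 ± 0.24 on the log2 scale (SE, edgeR adjusted p = 9.22e-09). The smallest was that of Bgn, at 14.0, 16.4, 15.2 and 20.8 CPM against 3.63, 5.10, 3.36 and 2.77 CPM, a difference of 2.37 ± 0.22 (adjusted p = 1.03e-05).

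The genes at the low end of the kidney libraries fell into separate sets. Scara5 had 4, 0, 0 and 1 counts in kidney macrophages, Lum had 0, 1, 6 and 1, and Igfbp6 had 5, 1, 1 and 1, so the fitted log2 differences of 10.27, 7.54 and 9.97 rest on single reads. Without kidney replicate 1 the values were 11.79 for Scara5 and 10.82 for Igfbp6, and without kidney replicate 3 Lum was at 9.10. Fbln2 was at 0 in 2 of the 4 kidney libraries and at 0.788 and 1.04 CPM in the others, for a difference of 6.19 ± 0.78 that became 6.87 without kidney replicate 3. Dpt differed by 3.89 ± 0.60, and by 4.52 without kidney replicate 1. Pi16, Bgn and Aebp1 had more counts in kidney macrophages, where they made up 33.7%, 22.3% and 15.5% of the counts of the 10 genes, while the share of Dcn was 52.4% in capsule macrophages and 14.4% in kidney macrophages.

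General fibroblast markers moved with this result. All 8 were called higher by edgeR, and their sum ranged from 435 to 694 CPM over the capsule libraries and from 56.5 to 69.5 CPM over the kidney libraries, where 5 of the 8 had a mean below 1 CPM. Other marker lists also differed between the 2 sources. edgeR called 7 of 7 tested adipocyte markers higher in capsule macrophages (sums of 27.8 to 54.3 CPM against 11.97 to 15.8 CPM), 8 of 8 macrophage markers higher (25166 to 28560.1 CPM against 18348 to 20282.7 CPM) and 4 of 4 tested erythroid markers higher (150.2 to 318 CPM against 23.2 to 35.5 CPM). T cell markers summed to 33.1 to 43.3 CPM against 2.28 to 5.15 CPM, with 1 of 5 tested called higher, Cd2. Kidney macrophages carried more nephron transcripts, with 7 of 8 proximal tubule markers lower in capsule macrophages (15.3 to 134 CPM against 1304 to 2462 CPM) and 7 of 7 markers of the loop and distal nephron lower, and 2 of 7 endothelial markers were lower, Emcn and Pecam1. Whether the reads of the 10 genes in sorted libraries came from macrophages or from other cells was not tested.

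Between aged and young RCAM, 9 of the 10 genes were higher in aged RCAM, beside 3.43% of the 15182 genes tested that edgeR called higher. The 10th gene, Pi16, missed the threshold with an adjusted p of 0.0554. The median log2 fold change of the 10 genes was 1.88 against -0.01 over all genes. In 9 of the 10 genes every aged library lay above every young one, beside 7.55% of all genes, and Pi16 was the exception here too. In sum the 10 genes stood at 331, 276, 383 and 338 CPM in young replicates 1 to 4 and at 970.0, 796, 1800.5 and 1559 CPM in aged replicates 1 to 4. Aged replicates 3 and 4 were the highest, and aged replicate 2 was still above every young library.

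The largest differences were among the secreted proteins. Aebp1 stood at 12.7, 6.14, 8.51 and 9.36 CPM in young RCAM and at 44.9, 55.6, 136 and 88.4 CPM in aged RCAM. The lowest aged library was thus well above the highest young one, with a log2 fold change of 3.11 ± 0.37 (SE, edgeR adjusted p = 0.00202). Fbln2 stood at 10.8, 17.3, 15.7 and 14.9 CPM in young and 66.9, 57.4, 107 and 139 CPM in aged RCAM, which left a wide gap between the ages (2.63 ± 0.27, adjusted p = 0.00109). Igfbp6 rose the least of the called genes, from 26.8, 19.7, 24.4 and 26.6 CPM to 43.1, 31.9, 73.6 and 73.0 CPM. Its groups were close together but apart (1.15 ± 0.25, adjusted p = 0.0284). Dpt rose from 1.08, 0.782, 1.02 and 1.14 CPM to 2.42, 2.03, 5.005 and 3.09 CPM, with aged replicate 3 the highest (1.61 ± 0.34, adjusted p = 0.0245).

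All 3 proteoglycans rose. Bgn stood at 8.86, 10.7, 11.1 and 7.92 CPM in young and 33.5, 35.1, 67.6 and 95.2 CPM in aged RCAM, with the aged libraries in a lower and a higher pair (2.56 ± 0.32, adjusted p = 0.00268). Dcn stood at 167, 131, 222 and 178 CPM in young and 540.2, 433, 957 and 747 CPM in aged RCAM, every aged library being above every young one (1.92 ± 0.24, adjusted p = 0.00246). Lum stood at 18.8, 11.3, 12.3 and 20.6 CPM in young and 53.2, 41.0, 88.7 and 78.7 CPM in aged RCAM, again without overlap (2.02 ± 0.28, adjusted p = 0.00389).

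Of the 3 fibroblast markers, Pdgfra and Scara5 were called higher, and Pi16 had a positive difference that missed the threshold. Pdgfra stood at 27.9, 30.1, 29.8 and 36.7 CPM in young and 82.3, 63.2, 118 and 129 CPM in aged RCAM, and its young libraries lay close together (1.63 ± 0.20, adjusted p = 0.00266). Scara5 stood at 19.8, 20.8, 32.1 and 21.1 CPM in young and 58.3, 40.2, 142 and 100.1 CPM in aged RCAM, with young replicate 3 apart from the other young libraries (1.84 ± 0.34, adjusted p = 0.0152). Pi16 stood at 37.1, 27.8, 26.5 and 21.4 CPM in young and 45.3, 36.8, 107 and 105 CPM in aged RCAM. Aged replicate 2 lay just below the highest young library, so the ages overlapped (1.35 ± 0.35, adjusted p = 0.0554).

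The calls of Aebp1, Fbln2, Bgn, Dcn, Lum and Pdgfra held in every fit that left out a single library. That of Igfbp6 was lost without young replicate 1, 2, 3 or 4 or aged replicate 3 or 4 (adjusted p = 0.0505 to 0.0795), that of Dpt without young replicate 2, 3 or 4 or aged replicate 3 or 4 (0.0563 to 0.0642), and that of Scara5 without young replicate 4 (0.0501). The call of Dpt was also lost with replicate numbers as a block (0.078), although the numbers did not pair RCAM libraries. Pi16 was called without aged replicate 1 (0.0451) or aged replicate 2 (0.0228), and by DESeq2 (0.017), which called 8.91% of all genes. It was also called with no filter on low counts (0.0439) and with all 6 groups in 1 fit (0.00995). Those 2 fits called 539 and 623 of all genes higher.

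Markers of other cell types were summed in the same libraries. The 8 general fibroblast markers summed to 439 to 597 CPM in young RCAM and, in aged replicates 1 to 4, to 752, 526, 1355 and 1951 CPM. Of these 8 genes edgeR called 3 higher in aged RCAM, Clec3b, Mfap5 and Serpinf1, all 8 had an unadjusted p under 0.05 (17.4% of all genes), and their median log2 fold change was 1.16. Adipocyte markers summed to 22.9 to 42.3 CPM in young and 43.8 to 90.7 CPM in aged RCAM (1 of 8 called higher, Fabp4), endothelial markers to 8.004 to 13.5 and 16.2 to 33.8 CPM (0 of 5 tested called by edgeR, 2 at an unadjusted p under 0.05, and Cldn5 by DESeq2), and markers of smooth muscle and pericytes to 6.54 to 9.60 and 14.8 to 36.4 CPM (2 of 6 called higher, Postn and Rgs5). B and plasma cell markers summed to 9.33 to 18.3 CPM in young and 64.6 to 270.3 CPM in aged RCAM, with 4 of 4 tested called higher. T cell markers went the other way in sum, from 29.7 to 54.7 CPM in young to 12.1 to 27.3 CPM in aged RCAM, with 1 of 4 tested called lower, Cd2 (38.6 ± 12.4 and 16.6 ± 6.52 CPM, SD, n = 4 each), which held most of that sum. Macrophage markers did not separate the ages, with 0 of 8 called by edgeR or DESeq2, 1 at an unadjusted p under 0.05 and a median of 0.01. Mesothelial markers stayed between 1.32 and 3.44 CPM in sum in all RCAM libraries, where Bnc1 was at 0. The part of these other cells in the rise of the 10 genes was not tested.

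**Figure D2:**
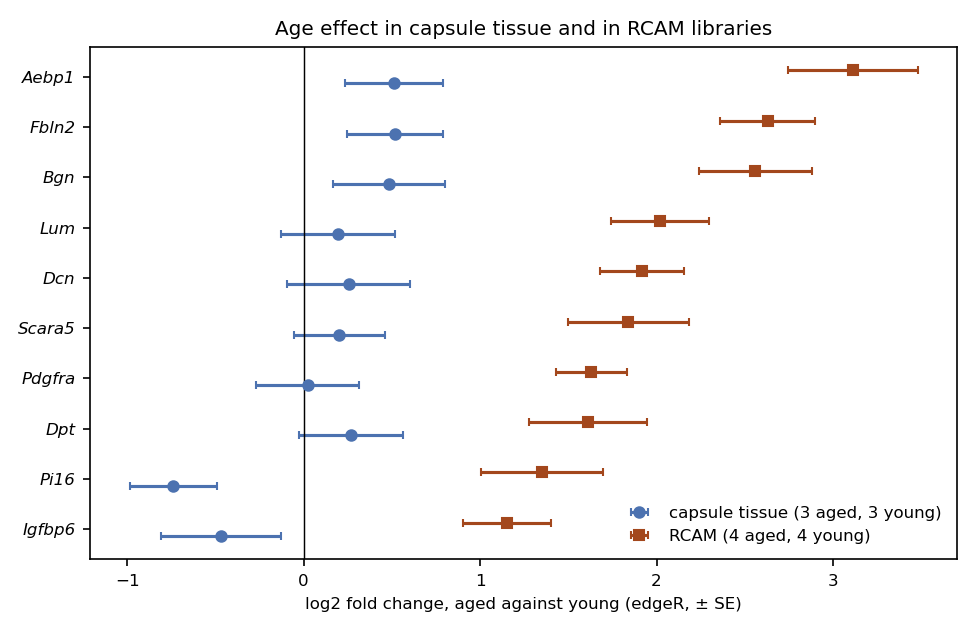
Log2 fold change with age (aged against young, points, with bars for the standard error of the edgeR fit) of each of the 10 genes in capsule tissue and in RCAM libraries. The tissue values lie between -0.74 and 0.52 and the RCAM values between 1.15 and 3.11, and no standard error bars of the same gene touch.

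Compared with tissue of the same age, all 10 genes were lower in young RCAM (beside 40.6% of 17491 genes tested that edgeR called lower) and 9 of 10 were lower in aged RCAM (38.5% of 17595 genes). The median log2 difference of the 10 genes was -4.50 in young and -2.65 in aged mice, against -0.14 and -0.16 over all genes. The groups did not overlap for 10 genes in young and 9 genes in aged mice (45.7% and 46.1% of all genes downward). The gene that missed the threshold in aged mice was Fbln2, with a log2 difference of -0.81 ± 0.32 (edgeR adjusted p = 0.0504). DESeq2, which called 63.0% of all genes, gave 0.0195, and the fits without aged tissue replicate 2 or aged RCAM replicate 4 gave 0.0294 and 0.015. Fbln2 was also called with DESeq2 size factors in edgeR (0.0405), no filter on low counts (0.0438) and the replicate block (0.00908). The fit of genes with no opposite-strand gene gave 0.0421. The remaining alternatives did not call it (adjusted p up to 0.18).

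As a share of the tissue mean, the level in RCAM differed widely between the genes. Young RCAM held 11.2% of the tissue level of Fbln2, 7.22% of that of Pdgfra, 5.87% for Scara5 and 5.63% for Lum, then 4.15% for Dcn, 3.24% for Pi16, 2.94% for Igfbp6, 1.88% for Aebp1, 1.27% for Bgn and 0.161% for Dpt. Aged RCAM held 45.5% for Fbln2, 20.7% for Pdgfra, 19.0% for Lum, 17.1% for Scara5, 13.04% for Pi16, 12.4% for Dcn, 10.8% for Aebp1, 8.61% for Igfbp6, 5.07% for Bgn and 0.383% for Dpt. The order of the genes was thus similar at both ages, with Fbln2 at the top and Bgn and Dpt at the bottom, and each of the 10 shares was larger in aged mice. Tissue and RCAM libraries may also have been made with different kits, since the labels name a 100 ng stranded kit and a 2 ng low-input kit without saying which library had which, so kit and sample type cannot be told apart.

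**Figure D3:**
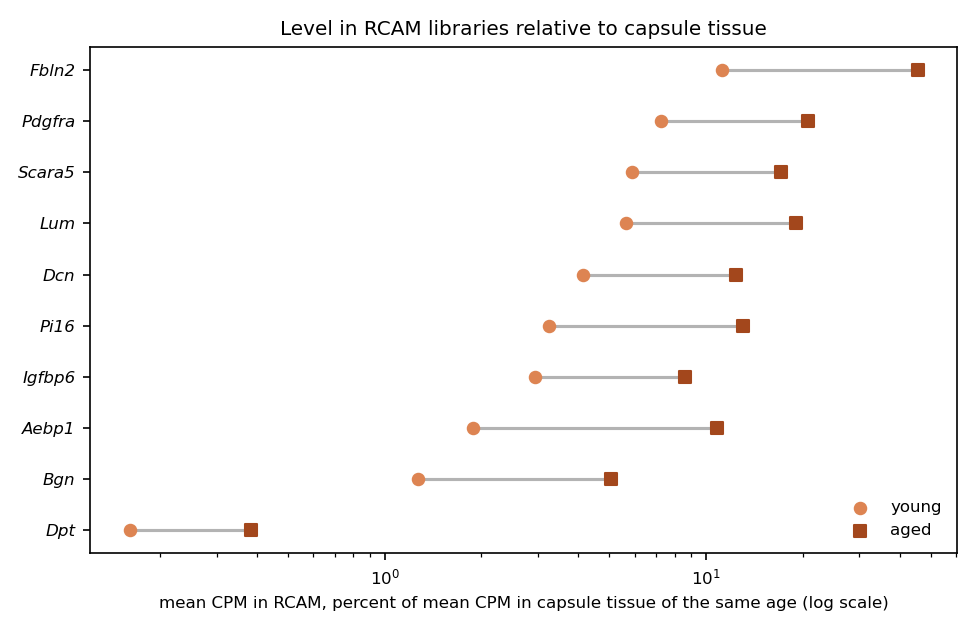
Mean CPM in RCAM libraries as a percent of the mean CPM in capsule tissue of the same age, for each of the 10 genes, on a log axis, with circles for young and squares for aged mice. Every gene lies further right in aged mice, Fbln2 is highest (11.2% and 45.5%) and Dpt is far below the others (0.161% and 0.383%).

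The low share of Dpt has a measured limit. Dpt lies at chromosome 1, 164796644 to 164824266 on the + strand of GRCm38, and 73.5% of its span, with 77.2% of its exonic bases, lies under Gm32569, a gene on the opposite strand (164803969 to 164899591). Among genes with at least 20 CPM in tissue, 155 of the 180 whose whole span lay under an opposite-strand gene had 0 counts in all 16 RCAM and sorted macrophage libraries, against 3 of the 4471 with no opposite-strand gene. The median level in those libraries was 84.4% of tissue for the latter and 31.1% for genes covered over more than 50 and less than 100 percent of their span. Levels of Dpt are therefore not comparable between tissue and the other libraries, while its comparisons among RCAM or among macrophage libraries use libraries with the same limit. Pdgfra lay under opposite-strand genes for 2.29% of its span and 7.63% of its exonic bases, and the other 8 genes for 0%, counting the opposite-strand genes that the count tables list. Pi16 also meets AC162182.1, an antisense gene of GENCODE M21 that was not analysed here and that spans 19.9% of Pi16 and 3.49% of its exonic bases.

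The age effect was larger in RCAM than in tissue for all 10 genes, and edgeR's interaction test called 8 of them, beside 3.12% of the 18856 genes tested that were called in this direction. The difference of the 2 age effects was 2.64 ± 0.50 for Aebp1 (SE, adjusted p = 0.0181), 2.15 ± 0.41 for Fbln2 (0.0184), 2.13 ± 0.48 for Pi16 (0.0283), 2.12 ± 0.47 for Bgn (0.0283), 1.87 ± 0.45 for Lum (0.0355), 1.70 ± 0.40 for Dcn (0.0328), 1.66 ± 0.43 for Igfbp6 (0.0432) and 1.65 ± 0.35 for Pdgfra (0.0252), all on the log2 scale. Scara5 (1.68 ± 0.48, adjusted p = 0.0581) and Dpt (1.38 ± 0.40, adjusted p = 0.0624) missed the threshold. DESeq2 called all 10 genes (Scara5 at 0.0122 and Dpt at 0.0208), beside 13.8% of all genes. The fit with the replicate number as a block called 9, with Dpt at 0.0394, beside 4.31% of all genes. That block gives tissue and RCAM libraries of the same number a shared effect, although the numbers paired libraries only in tissue. Its count is therefore given without weight. In the edgeR fit without a block, the median difference of the 10 genes was 1.79 against 0.06 over all genes. Pi16 stands out among them because its tissue value was negative (-0.74) and its RCAM value positive (1.35), as it was for Igfbp6 (-0.47 and 1.15), although neither gene passed edgeR's test in tissue.

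The number of genes called depended on single libraries. It was 2 without young tissue replicate 1, 5 without young tissue replicate 3, 1 without aged tissue replicate 1, 3 without aged tissue replicate 2, 5 without young RCAM replicate 2 or 3, 4 without young RCAM replicate 4, 5 without aged RCAM replicate 3 and 4 without aged RCAM replicate 4. Over all genes, 589 were called in this direction with every library, and 112 to 987 in the fits without 1 library. The direction was positive for all 10 genes in each of these fits, and Fbln2 was called in every one (adjusted p at most 0.0426). With both replicate 2 tissue libraries left out, among them the library with adrenal transcripts, 5 genes were called.

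Within the counts of the 10 genes, several shares moved in the same direction with age in tissue and in RCAM, which is given as a description without a test. The share of Pi16 was 10.02% ± 2.72 (SD, n = 3) in young and 5.28% ± 0.62 (n = 3) in aged tissue, and 8.64% ± 2.38 (n = 4) in young and 5.50% ± 1.04 (n = 4) in aged RCAM. The share of Igfbp6 was 9.13% ± 0.52 and 5.89% ± 0.82 in young and aged tissue and 7.38% ± 0.78 and 4.30% ± 0.31 in young and aged RCAM. Both shares were lower on average in aged libraries of each material. Those of Igfbp6 did not overlap between the ages in either material, and those of Pi16 overlapped in RCAM. Aebp1 went from 5.35% ± 0.36 to 7.13% ± 1.48 in tissue and from 2.76% ± 0.76 to 6.21% ± 1.32 in RCAM. Bgn went from 8.29% ± 0.61 to 10.5% ± 0.39 and from 2.95% ± 0.66 to 4.43% ± 1.19, and Fbln2 from 1.47% ± 0.14 to 1.86% ± 0.36 and from 4.52% ± 1.27 to 7.24% ± 1.25. These 3 shares were higher in aged libraries on average, and the ages did not overlap for any of the 3 in tissue or for Aebp1 in RCAM. Dcn stayed between 46.3% and 52.8% on average in all 4 groups. Pdgfra went from 4.71% to 4.44% in tissue and from 9.49% to 7.81% in RCAM, lower in both. The mean shares of Scara5, Lum and Dpt moved in opposite directions. Scara5 went from 4.48% to 4.62% in tissue and from 7.03% to 6.34% in RCAM. Lum went from 3.16% to 3.11% and from 4.77% to 5.15%, and Dpt from 7.13% to 7.44% and from 0.303% to 0.245%. Shares of the same total also depend on each other.

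**Figure D4:**
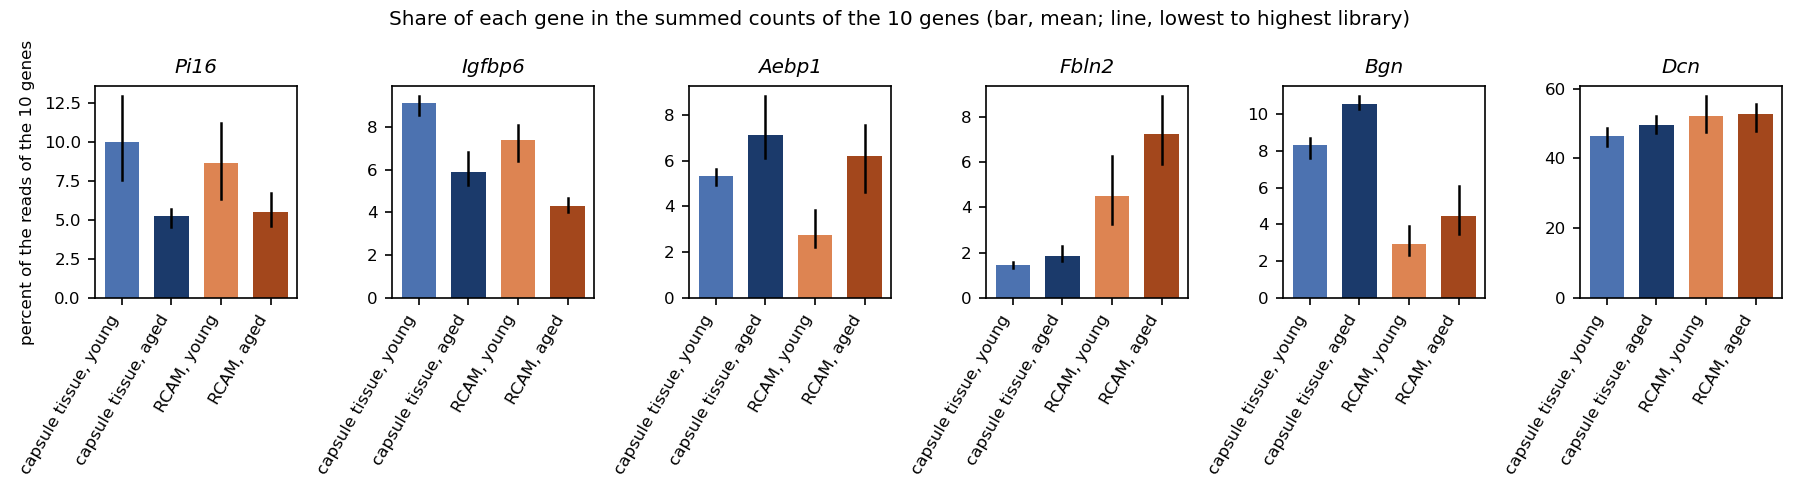
Share of Pi16, Igfbp6, Aebp1, Fbln2, Bgn and Dcn in the summed counts of the 10 genes, in percent, for young and aged capsule tissue and young and aged RCAM, with bars for the group mean and lines from the lowest to the highest library. Pi16 and Igfbp6 are lower and Aebp1, Fbln2 and Bgn higher in aged groups of both materials, and Dcn stays near 50%. Pdgfra, Scara5, Lum and Dpt are not drawn.

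The order of the 6 groups was nearly the same for each gene. Aged tissue had the highest mean for 8 genes and young tissue for Pi16 and Igfbp6, and the 2 ages of tissue overlapped for all genes but Pi16 and Aebp1. Aged RCAM came next for all 10 genes, and only for Fbln2 did it overlap tissue, in both age groups. Capsule macrophages lay above young RCAM for 9 genes and overlapped it for Pdgfra, Scara5, Dcn and Dpt, while Lum was lower in capsule macrophages (8.31 ± 1.26 CPM, SD, n = 4) than in young RCAM (15.8 ± 4.64 CPM, n = 4). Aged RCAM overlapped capsule macrophages for Scara5, Pi16 and Igfbp6. Kidney macrophages were last for all 10 genes.

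Related genes that were listed by role, with earlier results of these data known, are set beside the 10 genes. In aged against young tissue edgeR called 0 genes of each of the 8 lists, with 0 to 3 genes of a list at an unadjusted p under 0.05, and DESeq2 called Cd44, Prg4 and Tgfb1 higher and Igfbp1 lower. Their genes of smallest p included Cd44, the hyaluronan receptor (30.5 ± 7.42 CPM in young and 97.4 ± 35.9 CPM in aged tissue, SD, n = 3 each, edgeR adjusted p = 0.0737), Prg4, a lubricating proteoglycan (5.17 ± 2.37 and 20.4 ± 8.47 CPM, adjusted p = 0.0858), and Tgfb1 (35.6 ± 6.23 and 70.6 ± 13.1 CPM, adjusted p = 0.0907). Igfbp1, a carrier of insulin-like growth factors, was at 2.31 ± 1.74 and 0.182 ± 0.074 CPM (adjusted p = 0.0827), and the chemokine gene Ccl11 at 52.8 ± 5.35 and 90.2 ± 21.5 CPM (adjusted p = 0.132). In the family of Fbln2, Efemp1 was at 249 ± 53.8 and 387 ± 19.1 CPM (adjusted p = 0.207).

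In aged against young RCAM the list of fibulins, microfibrils and elastic fibres had 12 of 17 tested genes higher and 0 lower, with a median log2 fold change of 1.93. Of all genes, 3.43% were called higher there. The genes named from here on for RCAM were chosen after their values were seen. Fibulin genes rose beside Fbln2, as Fbln1 went from 17.9 ± 4.76 to 59.5 ± 16.7 CPM (SD, n = 4 each, edgeR adjusted p = 0.00329) and Fbln5 from 16.3 ± 1.11 to 63.2 ± 26.8 CPM (adjusted p = 0.00352). Loxl1, which cross-links elastin, went from 2.99 ± 0.39 to 15.0 ± 6.27 CPM (adjusted p = 0.00266), while Efemp2 was at 41.9 ± 6.47 and 44.9 ± 6.38 CPM (adjusted p = 0.853).

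The other small leucine-rich proteoglycans had 2 of 6 tested genes higher, Podn (4.23 ± 1.27 to 14.1 ± 6.54 CPM, SD, n = 4 each, edgeR adjusted p = 0.015) and Prelp (4.94 ± 0.65 to 14.3 ± 6.72 CPM, adjusted p = 0.0261). Fmod, which encodes fibromodulin, was at 25.4 ± 13.7 and 48.9 ± 25.5 CPM (adjusted p = 0.314). Ogn, at 1060.2 ± 422 CPM (n = 3) in young tissue, and Aspn, Omd and Ecm2 were at 0 in every RCAM and macrophage library. These 4 genes lie wholly under an opposite-strand gene, as described for Dpt. The 18 tested genes of chondroitin and dermatan sulfate synthesis, which build the sugar chains of decorin and biglycan, had 0 called by edgeR, 7 at an unadjusted p under 0.05 and 2 called by DESeq2 (B3galt6 and Chst11), with a median of 0.20. Large proteoglycans and hyaluronan genes had 0 of 8 higher and 2 lower, Cemip2 and Hyal2, beside 1.38% of all genes called lower.

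Of 17 tested adventitial fibroblast genes, 8 were higher and 0 lower in aged RCAM, with a median of 1.17. They included Ccl11, an eosinophil chemokine (1.36 ± 0.52 to 10.6 ± 4.07 CPM, SD, n = 4 each, edgeR adjusted p = 0.00226), Cd248, a stromal surface protein (10.9 ± 3.34 to 50.4 ± 27.3 CPM, adjusted p = 0.0123), and the complement gene C3 (349 ± 65.7 to 899 ± 249.8 CPM, adjusted p = 0.00598). The other genes of the PDGF system had 3 of 6 higher, namely Pdgfb, Pdgfd and Pdgfrb. Pdgfrb, the receptor of pericytes and fibroblasts, went from 4.04 ± 1.76 to 17.6 ± 9.89 CPM (adjusted p = 0.0324), whereas the ligand gene Pdgfc was at 134 ± 15.2 and 126 ± 26.6 CPM (adjusted p = 0.794). Of the IGF axis, 2 of 8 were higher, Igfbp7 (13.9 ± 2.95 to 56.9 ± 18.9 CPM, adjusted p = 0.00226) and Igf2r, while Igfbp4, at 1031 ± 106 and 1155 ± 86.1 CPM, and Igf1, at 348 ± 28.4 and 321 ± 47.4 CPM, did not pass. The TGF-β list had 2 of 11 higher, Tgfbr3 and Thbs1.

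Between capsule and kidney macrophages edgeR called 14 of 17 fibulin and microfibril genes higher and 0 lower (median 2.85), 11 of 16 adventitial fibroblast genes higher and 3 lower (median 1.38), and 4 of 6 other small leucine-rich proteoglycans higher and 1 lower (median 2.38). Of all genes, 27.3% were called higher and 28.2% lower. Chondroitin and dermatan sulfate synthesis had 8 of 18 higher and 5 lower (median 0.37), and the TGF-β list had 3 of 11 higher and 4 lower (median 0.05). The 5 of 18 lower and the 3 of 11 higher lie near the shares of all genes. The interaction test called 7 of 19 fibulin and microfibril genes, 5 of 18 adventitial fibroblast genes and 1 of 11 other small leucine-rich proteoglycans in the direction of the larger RCAM effect, beside 3.12% of all genes.

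Over the 22 libraries, the genes whose pattern was nearest to the mean pattern of the 10 genes were Ntrk2, Islr, Svep1, Nid1 and Ddr2. Likeness was the root mean square difference between patterns of log2(CPM + 1), each centred on its own mean. It was taken among 7918 genes with a mean of at least 20 CPM in capsule tissue, where the 10 genes were highest. The values were 0.34, 0.36, 0.37, 0.41 and 0.42. Of the 10 genes, Pdgfra (0.55) and Lum (0.55) were nearest to their mean pattern and Dpt (1.71) was the farthest. The value of Dpt spans tissue and the other libraries, between which its levels are not comparable, as described above. Dpt also enters the mean pattern itself. For Pdgfra alone the nearest genes were Islr (0.37), Adamts2 (0.39) and Col6a1 (0.41). The 22 libraries share groups, so these values mostly follow the differences between the 6 groups.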

How the data were processed

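The series holds bulk RNA sequencing of 22 mouse libraries, put into 6 groups by their titles. Per gene, the authors deposited unnormalized whole-number read counts (52636 genes), and all values here derive from those counts. RPKM values computed by the authors were left aside. GRCm38 is the build in the submitters' processing notes. For the aligner, the counter and strand use, the sources used here give nothing. Per the labels' protocols, reads were single-end and 50 bp long, from a kit with 100 ng or a kit with 2 ng of total RNA. Symbols and coordinates came from GENCODE M21, in which 147 gene identifiers were not found.

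Differences were tested on the deposited counts by the 2-sided quasi-likelihood F test of edgeR 4.0.16 (R 4.3.3), with TMM scaling, its default filter on low counts, Benjamini-Hochberg adjustment over every tested gene and a threshold of 0.05. Each fit used the compared groups alone, and the interaction fit held 4 groups. Printed levels are CPM of the unscaled library total, so a fold change of a fit can differ from a ratio of means. Fold changes are given on the log2 scale with their standard error. The fits were also run on simulated counts, and no value given here rests on that run. The simulation changed far fewer genes than edgeR called between RCAM and tissue. DESeq2 1.42.0, another scaling, no filter, a replicate block, all groups in 1 fit and leaving out each library were the alternatives. The genes with no opposite-strand gene, and the fit without both tissue replicate 2 libraries for the interaction, were added after seeing the data.

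The 10 genes and the lists were chosen with earlier results of these data known. The rule named the 10 genes everywhere, up to 4 genes of smallest p in the tissue comparison from each list, and the 5 genes of nearest pattern (3 for Pdgfra). Other names were chosen after their values were seen. In capsule tissue, same-numbered young and aged libraries deviated together (r = 0.157, 0.448 and 0.425 over 14725 genes), so the numbers were taken to pair them, from the data and not from the labels. In the other comparisons they did not (r from -0.155 to 0.0851).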

Additional observations from a re-analysis of the deposited data

Results flagged for a closer look

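In 40 sets of 1 gene in 1 group of 4 libraries, 3 had a library far from the others, where chance gives about 1 in 20. Scara5 in young RCAM was highest in replicate 3, at 32.1 CPM, while the other young libraries lay between 19.8 and 21.1 CPM. Lum in kidney macrophages was highest in replicate 3, at 0.188 CPM, which is 6 reads, and Igfbp6 in kidney macrophages was highest in replicate 1, at 0.109 CPM, which is 5 reads.

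The effect of age differed between RCAM and capsule tissue by edgeR's interaction test in 8 of the 10 genes. Beside them, 3.12% of the 18856 genes tested were called with a positive difference. The count depended on single libraries, with 1 to 10 of the 10 genes called when 1 library was left out. On the log2 scale the difference was 1.65 for Pdgfra, 2.13 for Pi16, 1.70 for Dcn, 2.12 for Bgn, 1.87 for Lum, 2.15 for Fbln2, 2.64 for Aebp1 and 1.66 for Igfbp6, and it was positive in each. In all 8 genes the RCAM effect was the larger.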

How the results depend on the processing

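Over all alternatives the direction of the 10 genes changed only in aged against young tissue, where edgeR called none of the 10. There Pdgfra was at -0.23 without young replicate 2 and at -0.11 without aged replicate 1 (-0.23 to 0.28 over single left-out libraries), at -0.0090 with scaling without immunoglobulin, mitochondrial and haemoglobin genes and at -0.082 without both replicate 2 libraries, and Lum was at -0.15 without aged replicate 3 (-0.15 to 0.45), all as log2 fold changes. DESeq2 called 1 of the 10 genes lower there. The cause was not tested. In the interaction 5 of the 10 genes were called without both tissue replicate 2 libraries. Leaving out 1 library at a time called 6 to 10 of the 10 genes in RCAM, 9 to 10 in aged RCAM against aged tissue, 1 to 10 in the interaction, 0 in tissue with age, and all 10 in the other comparisons.

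Counts of all genes called moved more. In tissue with age edgeR called 25 higher and 14 lower, and these counts were 747 and 1064 by DESeq2, 403 and 692 without a filter, 2293 and 804 with all 6 groups in 1 fit and 176 and 311 without both replicate 2 libraries, and 22 genes were lower with the changed scaling. Leaving out 1 library gave 0 to 93 higher and 0 to 324 lower. In RCAM with age they were 520 and 209 by edgeR, 1030 and 520 by DESeq2, 114 lower with all 6 groups in 1 fit, and 340 to 497 higher and 98 to 153 lower without 1 library. In the interaction they were 589 and 363 by edgeR, 1300 and 1004 by DESeq2, and 112 to 987 and 114 to 607 without 1 library. With genes that meet no opposite-strand gene of the count tables, fewer were tested, and 3604 and 3863 (young) and 3315 and 3648 (aged) were called between RCAM and tissue.

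With the replicate block, which pairs same-numbered libraries, 943 genes were higher and 1253 lower in tissue with age and 280 and 56 in RCAM with age. Numbers pair libraries only in tissue, by the data, and there the block called 0 of the 10 genes.

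Depth limits the lowest values, as 8 or fewer reads stand behind each of Scara5, Lum and Igfbp6 in the kidney macrophage libraries together.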
